A study of Mus musculus with 3 samples.

Results

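Border macrophages carrying Lyve1 or Cd163 transcripts were examined in CD11b+ cells that had been enriched from the brains of mouse fetuses at E18.5, late in gestation, and 1061 such cells were found among 36354 cells that passed the cell limits. A cell was kept if it had 500 or more detected genes and no more than 10% of its UMIs (unique molecular identifiers, each standing for 1 captured transcript) came from mitochondrial genes. A kept cell was a member when at least 4 of the 7 macrophage genes Mrc1, Pf4, F13a1, Ms4a7, Cbr2, Folr2 and Stab1 were detected and Lyve1 and Cd163 together had at least 2 UMIs. It also had no UMI of the monocyte gene Ccr2 or the platelet gene Gp9, and at most 1 of the microglia genes Tmem119, Sall1 and Slc2a5. These values chose the cells, so the levels of these genes are given below as a description only.

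There were 3 droplet libraries, 1 per group. The Gzmb-cko+polyIC library has the genotype Ncr1-cre;gzmbf/f, the Ncr1-cre+polyIC library carries Ncr1-cre alone, and both come from pregnancies given poly(I:C), a man-made double-stranded RNA used as a stand-in for a virus. The Ncr1-cre+Saline library carries Ncr1-cre and comes from pregnancies given saline, and no Gzmb-cko library with saline is analysed here, so Ncr1-cre is shared by all 3 groups. The Cre driver Ncr1-cre is known to act in natural killer cells and some other innate lymphoid cells. Granzyme B, the product of Gzmb, is a protease that killer cells store in granules. The sources used here do not give the dose or the day of treatment, how many fetuses were pooled, or whether dam or fetus carried the genotype. With 1 library per group the cells are not replicates, no test between groups exists, and anything particular to a library cannot be told apart from its genotype or treatment. Intervals are 95% intervals and cover counting error only.

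Border-associated macrophages live at the edges of the brain, in the meninges, around vessels and in the choroid plexus, while microglia live inside the tissue. They take up debris and plasma proteins through scavenger receptors, and the Lyve1 and Cd163 forms are known for keeping close to vessels and for chemokine and growth factor production. Double-stranded RNA is sensed by cells through receptors that lead to type I interferon, which in turn switches on a wide set of antiviral genes.

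The members were a small fraction of each library. They were 595 of 13447 kept cells, or 4.43% (Clopper-Pearson interval 4.08 to 4.79), in the Gzmb-cko+polyIC library. They were 224 of 10759, or 2.08% (1.82 to 2.37), in the Ncr1-cre+polyIC library and 242 of 12148, or 1.99% (1.75 to 2.26), in the Ncr1-cre+Saline library. The share was thus highest in the Gzmb-cko+polyIC library, and the shares of the other libraries lay within each other's intervals. The libraries had entered with different lower limits of depth, since the smallest barcode held 500, 500 and 3133 UMIs in the Gzmb-cko+polyIC, Ncr1-cre+polyIC and Ncr1-cre+Saline libraries. Applied to cells thinned to 3000 UMIs each, the rule gave 5.42, 2.73 and 1.84% in the same order. The order of the libraries was then the same, with a wider gap between the Ncr1-cre+polyIC and the Ncr1-cre+Saline library. The CD11b beads set which cells enter these shares, and their part was not tested.

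**Figure D1:**
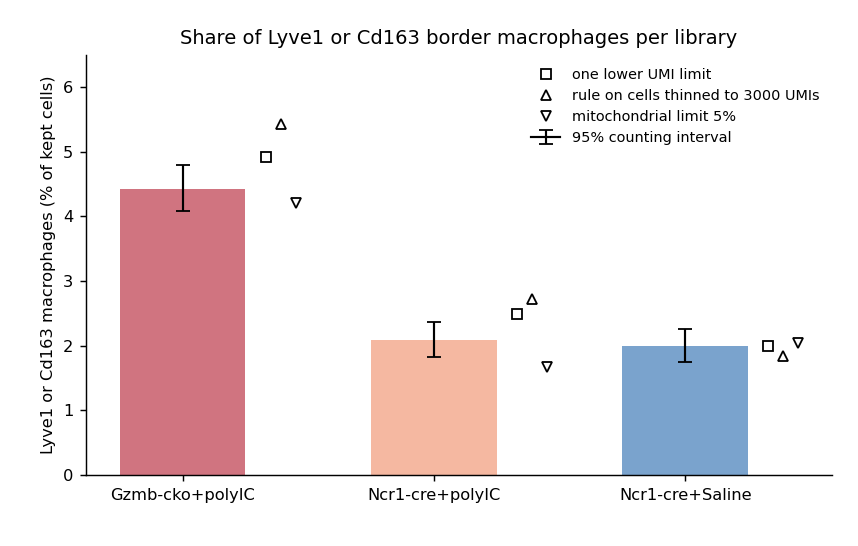
Share of Lyve1 or Cd163 border macrophages among kept cells (y axis, %) in the 3 libraries, with bars for the share, error bars for the 95% Clopper-Pearson interval, and open symbols for a common lower limit of UMIs, the rule on thinned cells and a mitochondrial limit of 5%. The Gzmb-cko+polyIC library, at 4.43%, stays above the Ncr1-cre+polyIC library, at 2.08%, and the Ncr1-cre+Saline library, at 1.99%, under each of them.

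The share of macrophages with these transcripts was lowest in the Ncr1-cre+Saline library. Among cells that met the other limits of the rule and had either at least 2 or 0 UMIs of Lyve1 and Cd163, members were 595 of 971 cells (61.3%, 58.1 to 64.4) in the Gzmb-cko+polyIC library. They were 224 of 373 cells (60.1%, 54.9 to 65.1) in the Ncr1-cre+polyIC library and 242 of 680 cells (35.6%, 32.0 to 39.3) in the Ncr1-cre+Saline library. Both poly(I:C) libraries were alike in this share and the saline library lay below them. Macrophages without these transcripts numbered 376 in the Gzmb-cko+polyIC, 149 in the Ncr1-cre+polyIC and 438 in the Ncr1-cre+Saline library. At a common lower limit of UMIs the shares were 60.8, 59.8 and 35.6% in the same order of libraries. At the edge of the rule, 22, 6 and 16 members of the Gzmb-cko+polyIC, Ncr1-cre+polyIC and Ncr1-cre+Saline libraries had exactly 2 UMIs of Lyve1 and Cd163, and 39, 14 and 28 otherwise fitting cells had exactly 1 and stayed outside.

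The members were well sampled for single cells, with a median of 7131, 5680.5 and 6382 UMIs and 2457, 2221 and 2187 genes in the Gzmb-cko+polyIC, Ncr1-cre+polyIC and Ncr1-cre+Saline libraries. Their UMIs summed to 4966818, 1602429 and 1750889, so a gene with 0 UMIs may still have stood at up to 0.604, 1.87 and 1.71 CPM (counts scaled to a total of 1000000). Precision was therefore highest in the Gzmb-cko+polyIC library. The libraries shared 63 to 71 barcodes pairwise, and no shared barcode was a member in both libraries. Scrublet, a doublet caller, marked 16, 6 and 4 members, which were kept and left out as an alternative. Gzmb itself was read in 1 kept cell with 2 UMIs in the Gzmb-cko+polyIC library, in 6 cells with 127 UMIs in the Ncr1-cre+polyIC library and in 4 cells with 61 UMIs in the Ncr1-cre+Saline library. Ncr1 was read in 0, 3 and 3 kept cells of the Gzmb-cko+polyIC, Ncr1-cre+polyIC and Ncr1-cre+Saline libraries. A loss of Gzmb thus cannot be told apart from a lack of the cells that carry it. Members had 0 UMIs of Gzmb and of Ncr1 in all 3 libraries. The sources used here do not give the exons that the floxed allele loses, so this 3' tag may lie outside them and checks the genotype only loosely.

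Of 15 border macrophage markers listed to check the label, 9 were used by the rule and restate the choice of cells. The other 6, Cd209f, Cd209g, Clec10a, Clec4n, Maf and Dab2, were detected in members of each library and summed to 3791 CPM in Gzmb-cko+polyIC, 4158 CPM in Ncr1-cre+polyIC and 3161 CPM in Ncr1-cre+Saline members, against 963, 913 and 1046 CPM in microglia of these libraries. Of these 6, Cd209g was low in members too, at 2.62, 1.25 and 0.571 CPM. Clec10a stood at 74.7, 84.3 and 56.5 CPM and Clec4n at 60.4, 39.9 and 51.4 CPM in members. Most of the sum in members thus came from Cd209f, Maf and Dab2. Of the genes used by the rule, Mrc1, the mannose receptor, stood at 2805, 4026 and 2018 CPM in the same order of libraries. Pf4, a chemokine known from platelets and macrophages, stood at 8389, 8276 and 5658 CPM, and F13a1, a clotting factor chain, at 2125, 2461 and 1986 CPM. Lyve1, a hyaluronan receptor (chromosome 7, 110850607 to 110863239 of build GRCm38), stood at 1726, 2400 and 1410 CPM. Cd163, the receptor for hemoglobin bound to haptoglobin (chromosome 6, 124304656 to 124330527), stood at 333, 372 and 190 CPM. Lyve1 was thus highest in the Ncr1-cre+polyIC library, and both genes were lowest in the Ncr1-cre+Saline library.

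RNA of other cells was present and its amount differed between the libraries. The 6 erythroid markers summed to 9680 CPM in Gzmb-cko+polyIC, 34270 CPM in Ncr1-cre+polyIC and 51060 CPM in Ncr1-cre+Saline members, choroid plexus markers to 1056, 3588 and 2813 CPM, and neutrophil markers to 2020, 666 and 2249 CPM. The 8 monocyte markers, of which Ccr2 was barred by the rule, summed to 178, 74.9 and 250 CPM in the same order of libraries. Radial glia markers summed to 59.2, 373.8 and 51.4 CPM and microglia markers, part of which the rule capped, to 1406, 1585 and 2326 CPM. Some markers of dendritic cells (Flt3, Xcr1, Clec9a and Ccr7), of natural killer and T cells (Ncr1, Klrb1c and Cd3e) and Lum of fibroblasts had 0 UMIs in every library. Other markers of these lists were detected at low levels. The dendritic cell list summed to 9.87, 13.1 and 13.1 CPM in the same order of libraries. The natural killer, T and innate lymphoid list summed to 9.46, 1.25 and 1.14 CPM, and the fibroblast list to 4.03, 4.37 and 1.71 CPM. Mitochondrial genes took 4.65, 4.84 and 3.43% and ribosomal protein genes 18.8, 14.6 and 19.8% of member UMIs in the Gzmb-cko+polyIC, Ncr1-cre+polyIC and Ncr1-cre+Saline libraries. Members with Xist and no Y-linked transcript, a sign of female cells, were 36.5, 57.6 and 31.8%, so this share was highest in the Ncr1-cre+polyIC members. The part of these differences in the gene results was not tested beyond the alternatives given with them.

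Beyond the genes of the rule, the members differed from microglia of the same libraries in many genes. Microglia were kept cells with at least 3 of P2ry12, Siglech, Gpr34, Tmem119, Sall1 and Slc2a5 detected. They also had at most 1 of the 7 macrophage genes and no UMI of Lyve1, Cd163 or Ccr2. Of 6287 genes compared, 299 were at least 2-fold higher and 167 at least 2-fold lower in members than in microglia in all 3 libraries, which is a description since the cells were chosen on their own transcripts. The lectin Clec10a stood at 74.7, 84.3 and 56.5 CPM in members of the Gzmb-cko+polyIC, Ncr1-cre+polyIC and Ncr1-cre+Saline libraries, against 0.417, 0.130 and 0.423 CPM in their microglia. The related lectin Mgl2 stood at 99.7, 142 and 65.7 CPM in members, against 1.29, 0.477 and 0.770 CPM in microglia. Both lectins were therefore close to absent from microglia and present in members of every library.

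Other receptors and secreted proteins followed. Colec12, a scavenger receptor with a collagen-like stem, stood at 206, 305 and 154 CPM in members, against 3.65, 2.08 and 2.16 CPM in microglia, with the libraries in the order Gzmb-cko+polyIC, Ncr1-cre+polyIC and Ncr1-cre+Saline here and in the rest of the comparison of cell types. Fcna, a ficolin that recognises sugars on microbes, stood at 376, 504 and 358 CPM in members, against 6.70, 5.94 and 5.08 CPM in microglia. Ednrb, an endothelin receptor, stood at 400, 440 and 324 CPM in members, against 8.37, 12.4 and 11.3 CPM in microglia. In the opposite direction Sparc, a matrix protein abundant in microglia, stood at 108, 162 and 301 CPM in members, against 1640, 1829 and 1502 CPM in microglia. P2ry12, a purine receptor that defines microglia, was detected in 37.0, 36.0 and 43.4% of members thinned to 3000 UMIs. It had at least 2 UMIs in 10.1, 10.4 and 16.9% of them, and was detected in 90.9, 93.7 and 87.8% of microglia. P2ry12 was among the genes that chose the microglia, so its share there in part restates that choice. Clec10a was detected in 19.1, 24.2 and 15.3% of members, against 0.05, 0 and 0.15% of microglia. Free RNA can carry transcripts between droplets, and its part in these shares was not tested.

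The macrophages with 0 UMIs of Lyve1 and Cd163 met the other limits of the rule. Of 6039 genes compared, 148 were at least 2-fold higher and 25 at least 2-fold lower in members in all 3 libraries. Ccl24, a chemokine for eosinophils, stood at 238, 247 and 194 CPM in members, against 31.8, 18.1 and 25.04 CPM in those macrophages. Igfbp4, which binds insulin-like growth factors, stood at 887, 1033 and 502 CPM in members, against 114, 108 and 90.5 CPM. The gap was wide for both genes in every library. Spp1, the secreted protein osteopontin, stood at 1296, 1604 and 1510 CPM in members, against 8121, 6111 and 6564 CPM, and Gpnmb, a membrane glycoprotein of lipid-laden macrophages, stood at 28.8, 1.87 and 36.0 CPM in members, against 302, 216 and 355 CPM. Lgals3, Fabp5 and Cd9, genes of the same lipid-laden state, were also among the 25.

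**Figure D2:**
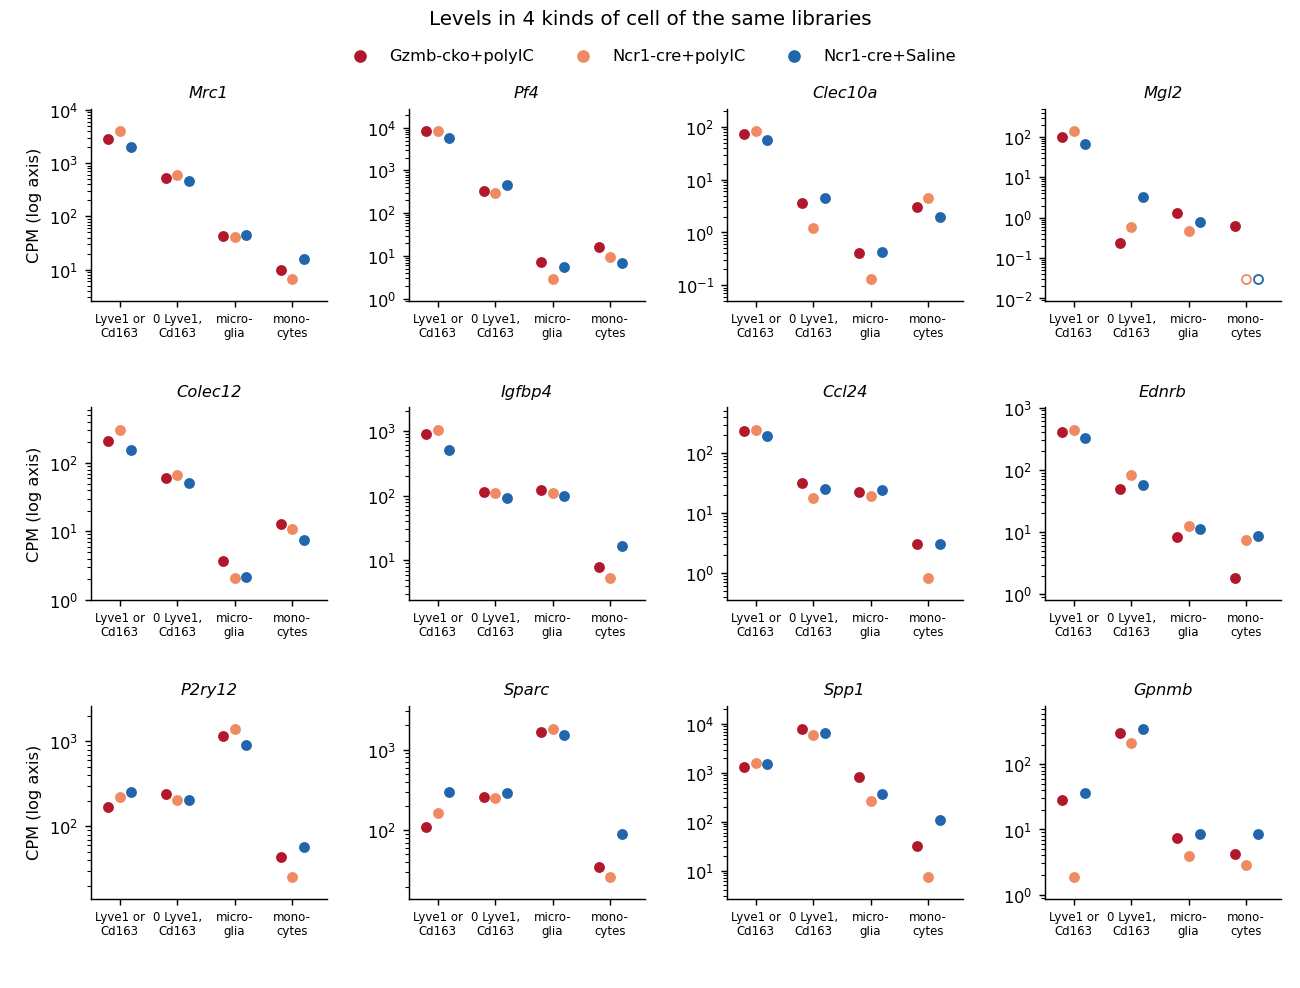
Level of 12 genes (y axis, CPM on a log scale) in members, macrophages with 0 UMIs of Lyve1 and Cd163, microglia and monocytes, with 1 point per library in the order Gzmb-cko+polyIC, Ncr1-cre+polyIC and Ncr1-cre+Saline and open points for a level of 0. Clec10a, Mgl2, Colec12, Igfbp4, Ccl24 and Ednrb are highest in members in each library, and P2ry12, Sparc, Spp1 and Gpnmb are higher in another kind of cell. P2ry12 was among the genes that chose the microglia.

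The members were not uniform. In cells thinned to 3000 UMIs, Lyve1 and Cd163 were both detected in 43.2, 48.8 and 32.2% of members of the Gzmb-cko+polyIC, Ncr1-cre+polyIC and Ncr1-cre+Saline libraries, Lyve1 alone in 47.4, 46.9 and 59.1%, and Cd163 alone in 4.17, 0 and 2.89%. Lyve1 was thus detected in most members. Without thinning, Cd163 was detected in 382 of 595, 139 of 224 and 112 of 242 members in the same order of libraries. A thinned member without Cd163 may therefore have missed it in sampling, and the split below is one of detection. Members with Cd163 had more Mgl2, at 170, 217 and 122 CPM, against 68.2, 117 and 57.3 CPM in members without it, and more Clec10a, at 107, 139 and 98.0 CPM, against 68.2, 83.3 and 46.7 CPM. They had less Spp1, at 165, 25.9 and 62.8 CPM, against 1284, 1710 and 1658 CPM in members without Cd163. This split was chosen after values were seen.

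A fraction of the members was in cycle. Mki67 or Top2a, genes of dividing cells, was detected in 23.8% (20.4 to 27.5) of thinned Gzmb-cko+polyIC members, 18.48% (13.5 to 24.4) of Ncr1-cre+polyIC members and 27.3% (21.8 to 33.4) of Ncr1-cre+Saline members. The intervals overlapped between all 3 libraries. By a wider measure, at least 5 genes of the lists for S phase and for G2 and M phase, the shares were 52.8, 58.8 and 52.5% in the same order. Both the size of the share and the order of the libraries thus depended on the measure. Hemoglobin genes, S100a8, S100a9 and Ttr, abundant in other cells, had the widest scatter over members, followed by Spp1, a gene of macrophages. The variance of Spp1 over its mean was 42.4, 125 and 59.9 in the Gzmb-cko+polyIC, Ncr1-cre+polyIC and Ncr1-cre+Saline libraries, where the median gene had 1.05 in each. Spp1 was at 0 UMIs in 76.7, 87.2 and 76.0% of thinned members, so few cells carried most of it. Genes of antigen presentation on MHC class II had at least 2 UMIs in 2.26, 0.474 and 0.413% of thinned members. Cd74, a gene of MHC class II presentation, was detected in 9.90, 7.11 and 10.7% of them.

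The first comparison set Gzmb-cko+polyIC members against Ncr1-cre+polyIC members, and its clearest feature was a higher level of interferon-stimulated genes. Of 35 such genes measured, 32 were higher in the Gzmb-cko+polyIC members, where 38.7% of all 5836 genes compared were higher, and 12 were higher by at least 1.5-fold, where 1.53% of all genes were. The median log2 ratio of the list was 0.40, against -0.09 for all genes compared. It was 0.58 under TMM scaling, which trims extreme genes and set the median of all genes at 0.08. None of the 35 was lower by 1.5-fold, where 6.13% of all genes were, and the 3 lower at all were Gbp7, Stat2 and Samhd1. The median was 0.55 among members with Xist and no Y-linked transcript, 0.35 without members that carried RNA of other cell types, and 0.76 at a mitochondrial limit of 5%. Monocyte markers moved with these genes in this comparison, since all 4 that were measured were higher in Gzmb-cko+polyIC members with a median log2 ratio of 2.09, and neutrophil markers did so for 5 of 6 with a median of 2.94. Their part in the result was not tested beyond the alternative without members that carried RNA of other cell types.

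Oasl2, a relative of the enzymes that sense double-stranded RNA (chromosome 5, 114896936 to 114912234), stood at 81.7 CPM in Gzmb-cko+polyIC members, 33.1 CPM in Ncr1-cre+polyIC members and 44.0 CPM in Ncr1-cre+Saline members. The ratio of Gzmb-cko+polyIC over Ncr1-cre+polyIC was 2.47 (1.85 to 3.36). Oasl2 was the highest-ranked of the genes whose UMIs were spread over many cells, and its level in Ncr1-cre+polyIC members lay below that of Ncr1-cre+Saline members. It was detected in 19.6% (16.5 to 23.1) of thinned Gzmb-cko+polyIC members, against 11.4% (7.43 to 16.5) of Ncr1-cre+polyIC and 10.7% (7.14 to 15.3) of Ncr1-cre+Saline members, and in 2.00, 2.50 and 2.10% of microglia of these libraries. Ifitm3, which blocks the entry of viruses (chromosome 7, 141009586 to 141010770), stood at 598, 312 and 499 CPM in members of the 3 libraries in the same order. Its ratio of Gzmb-cko+polyIC over Ncr1-cre+polyIC was 1.92 (1.74 to 2.11).

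Further antiviral genes had the same direction. Rsad2, which makes a chain-ending nucleotide (chromosome 12, 26442746 to 26456452), stood at 49.3 CPM in Gzmb-cko+polyIC, 21.2 CPM in Ncr1-cre+polyIC and 32.0 CPM in Ncr1-cre+Saline members. Ifit1, which binds foreign RNA, stood at 36.0, 16.2 and 18.9 CPM, and Irf7, a transcription factor of the interferon response, at 55.2, 26.2 and 36.6 CPM. Bst2, which tethers budding viruses, stood at 860, 586 and 566 CPM, and Isg15, a ubiquitin-like modifier, at 69.7, 46.2 and 60.0 CPM. For Rsad2, Irf7 and Isg15 the Ncr1-cre+polyIC members were the lowest of the 3 libraries, and for Bst2 and Ifit1 the Gzmb-cko+polyIC members alone stood apart. In Gzmb-cko+polyIC members the 5 highest cells held 24.5% of the UMIs of Rsad2 and 27.4% of those of Ifit1, while in Ncr1-cre+polyIC members Rsad2 was read in 19 cells and Ifit1 in 15.

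Promoters of these genes are shown because the genes of the list differed together. Of the 35 genes, 27 matched a RefSeq window of 300 bases, 250 before and 50 after the start, on build GRCm38.p6. The letters of the interferon-stimulated response element, TTTC and TTTC with any 2 bases between them, searched on both strands, occurred in 15 of the 27 (55.6%), against 190 of 4551 matched genes compared (4.17%) and 1079 of 27025 genes in the table (3.99%). The 250 bases before the start are printed 5′ to 3′ on the strand of the gene, with matches in capitals, for Rsad2 at chr12:26456453-26456702 on the minus strand and Ifit1 at chr19:34640639-34640888 on the plus strand.
Rsad2: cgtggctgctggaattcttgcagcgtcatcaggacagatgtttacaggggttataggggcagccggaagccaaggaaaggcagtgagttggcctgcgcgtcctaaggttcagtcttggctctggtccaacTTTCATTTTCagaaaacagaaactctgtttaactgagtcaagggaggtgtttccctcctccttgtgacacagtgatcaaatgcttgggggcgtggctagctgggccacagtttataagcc
Ifit1: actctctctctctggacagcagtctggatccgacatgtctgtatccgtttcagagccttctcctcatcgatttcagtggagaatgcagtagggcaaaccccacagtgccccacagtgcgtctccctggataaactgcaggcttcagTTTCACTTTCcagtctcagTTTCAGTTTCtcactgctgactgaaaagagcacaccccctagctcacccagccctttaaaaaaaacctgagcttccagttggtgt
Rsad2 has 1 match and Ifit1 has 2, and a match is a description of letters, not a site of binding. Shares of promoters with an element, here and for the unfolded protein list below, describe the reference sequence of listed genes. The libraries enter only through the limit of 20 CPM, so these shares are no result of treatment or genotype.

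Of 17 genes of MHC class I presentation measured, 13 were higher in Gzmb-cko+polyIC than in Ncr1-cre+polyIC members, where 38.7% of all genes were higher, and 4 were lower. By at least 1.5-fold 2 were higher, where 1.53% of all genes were, and the median log2 ratio was 0.28, against -0.09 for all genes. Psmb9, a subunit of the immunoproteasome, stood at 94.2, 54.9 and 55.4 CPM in Gzmb-cko+polyIC, Ncr1-cre+polyIC and Ncr1-cre+Saline members. The heavy chain H2-K1 stood at 362, 310 and 272 CPM and H2-D1 at 642, 524 and 444 CPM. Reads of H2 genes can be split between near-identical copies, so their values are uncertain. Of the 4 lower genes, Calr and Pdia3 also belong to the unfolded protein list that follows.

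The unfolded protein list, which holds chaperones of the endoplasmic reticulum and other stress response genes, was lower in Gzmb-cko+polyIC members. Of 20 genes of the unfolded protein and integrated stress response, 18 were lower than in Ncr1-cre+polyIC members, where 61.3% of all genes were lower, and 4 were lower by at least 1.5-fold, against the 6.13% of all genes. The median log2 ratio was -0.40, and -0.22 under TMM scaling. Hspa5, the main chaperone of the endoplasmic reticulum (chromosome 2, 34771970 to 34777547), stood at 552 CPM in Gzmb-cko+polyIC, 1156 CPM in Ncr1-cre+polyIC and 647 CPM in Ncr1-cre+Saline members. The ratio of Gzmb-cko+polyIC over Ncr1-cre+polyIC was 0.478 (0.450 to 0.507) and that of Ncr1-cre+polyIC over Ncr1-cre+Saline 1.79 (1.66 to 1.93). The Ncr1-cre+polyIC members thus stood above both other libraries, and the ratios share that library.

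Hsp90b1, a second chaperone of that compartment, stood at 866, 1258 and 943 CPM in Gzmb-cko+polyIC, Ncr1-cre+polyIC and Ncr1-cre+Saline members. Creld2, a secreted stress protein, stood at 33.8, 53.7 and 41.7 CPM and Atf6, the sensor that activates such genes, at 43.5, 69.9 and 32.0 CPM. In each of these the Ncr1-cre+polyIC members were the highest of the 3. Cytosolic heat shock chaperones had the same direction, with 10 of 12 lower in Gzmb-cko+polyIC than in Ncr1-cre+polyIC members, where 61.3% of all genes were lower, and a median log2 ratio of -0.39. Hsph1, a partner of heat shock protein 70, stood at 14.7, 34.3 and 18.3 CPM in Gzmb-cko+polyIC, Ncr1-cre+polyIC and Ncr1-cre+Saline members, and Hspa4, of the same family, at 105, 169 and 106 CPM.

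In the unfolded protein list 7 of 18 matched promoters (38.9%) held the endoplasmic reticulum stress element, namely those of Hspa5, Hsp90b1, Pdia6, Calr, Canx, Dnajc3 and Creld2. The letters of this element, CCAAT and CCACG with any 9 bases between them, were searched on both strands. They occurred in 8 of 4551 matched genes compared (0.18%) and 37 of 27025 genes in the table (0.14%). Hspa5 at chr2:34771840-34772089 and Creld2 at chr15:88819396-88819645, both on the plus strand, are printed to show the element in either orientation, as the 250 bases before the RefSeq start with matches in capitals.
Hspa5: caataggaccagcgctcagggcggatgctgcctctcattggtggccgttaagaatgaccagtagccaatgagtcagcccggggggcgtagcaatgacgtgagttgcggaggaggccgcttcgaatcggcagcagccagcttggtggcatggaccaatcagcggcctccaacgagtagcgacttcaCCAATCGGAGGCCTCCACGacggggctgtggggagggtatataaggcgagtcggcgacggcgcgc
Creld2: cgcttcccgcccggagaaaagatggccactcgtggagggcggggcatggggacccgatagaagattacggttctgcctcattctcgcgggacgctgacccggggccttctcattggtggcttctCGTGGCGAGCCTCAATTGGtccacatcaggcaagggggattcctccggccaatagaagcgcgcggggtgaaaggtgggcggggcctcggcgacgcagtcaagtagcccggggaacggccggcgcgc
The interferon-stimulated response element occurred in 0 of these 18 promoters, which is near its share of 4.17% of matched genes compared.

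**Figure D3:**
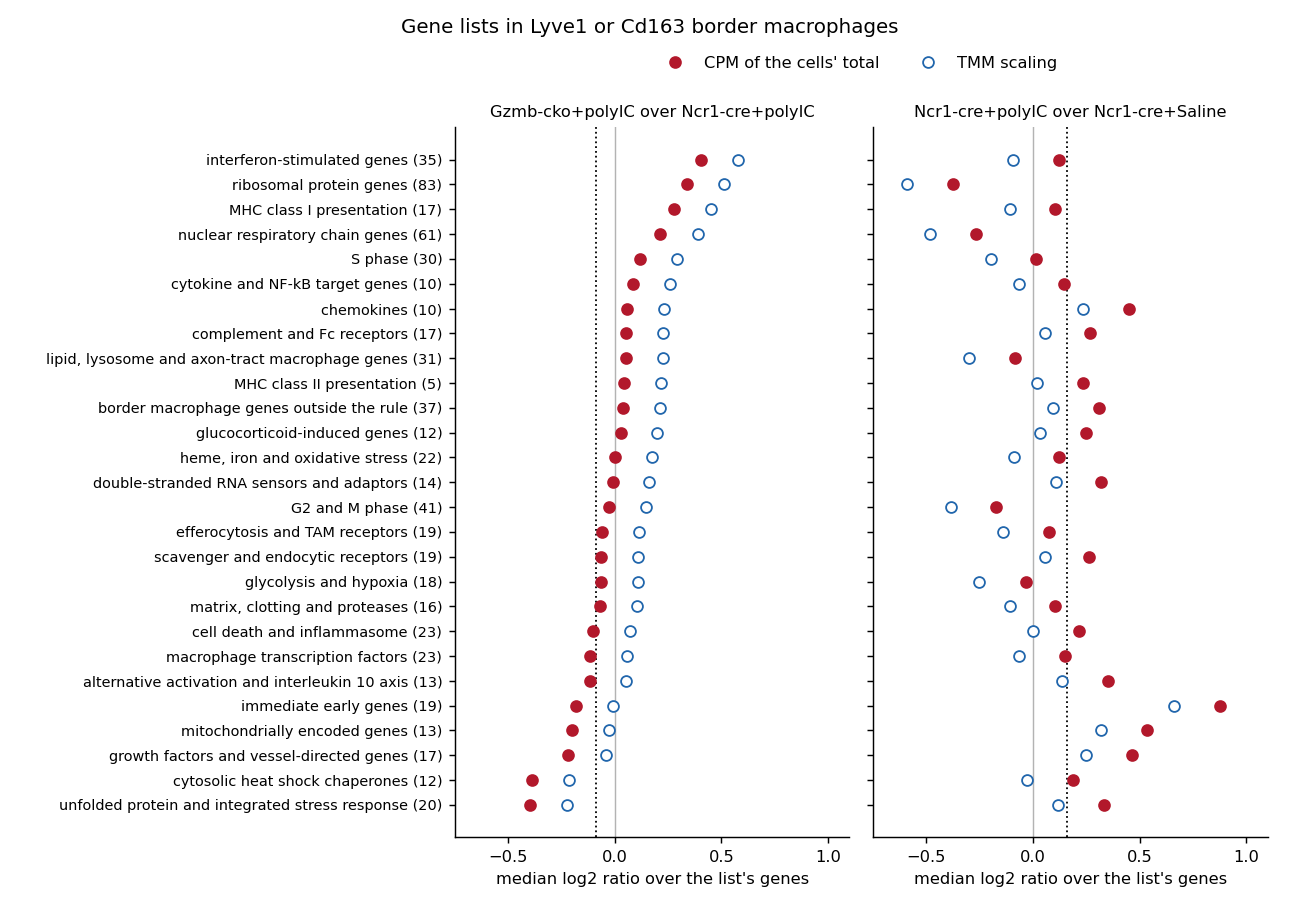
Median log2 ratio (x axis) of the genes of each list, hemoglobin genes left out, in members, for Gzmb-cko+polyIC over Ncr1-cre+polyIC (left) and Ncr1-cre+polyIC over Ncr1-cre+Saline (right), with the number of genes in brackets, filled points for CPM, open points for TMM scaling and a dotted line at the median of all genes by CPM. Interferon-stimulated genes lie highest on the left at 0.40, genes of the unfolded protein and integrated stress response lowest at -0.40, and immediate early genes highest on the right at 0.88.

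Genes of protein and energy production moved as blocks. Of 83 ribosomal protein genes, 82 were higher in Gzmb-cko+polyIC than in Ncr1-cre+polyIC members, where 38.7% of all genes were higher, with a median log2 ratio of 0.34, and 59 of 61 nuclear respiratory chain genes were higher with a median of 0.21. None of either list passed 1.5-fold in this comparison. In Ncr1-cre+polyIC against Ncr1-cre+Saline members, 75 of 83 ribosomal protein genes and 46 of 61 respiratory chain genes were lower, where 32.7% of all genes were lower. By at least 1.5-fold 21 and 5 of them were lower, where 3.51% of all genes were, with medians of -0.38 and -0.27. These lists hold short transcripts, and transcript length went with the ratio in general. Genes under 500 bases had a median of 0.30 in the Gzmb-cko+polyIC over Ncr1-cre+polyIC comparison and -0.75 in the Ncr1-cre+polyIC over Ncr1-cre+Saline comparison, while genes of 4000 bases or more had -0.22 and 0.24. Less the median of genes of like length, ribosomal protein genes had 0.23 and -0.33 in these comparisons, respiratory chain genes 0.10 and -0.21, and interferon-stimulated genes 0.41 and 0.05.

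Over all genes, 89 of 5836 (1.53%) were at least 1.5-fold higher and 358 (6.13%) at least 1.5-fold lower in Gzmb-cko+polyIC than in Ncr1-cre+polyIC members. Scaling turned this balance round, with 251 higher and 120 lower under TMM. The 12 largest higher ratios by the naming rule were Prtn3, Gpnmb, Stfa3, BC100530, Wfdc17, Stfa1, Oasl2, Rsad2, Ifit1, Sgol2a, Glrx and Rfc5. Several rested on few cells, since Prtn3, a neutrophil protease, was read in 2 Gzmb-cko+polyIC members and Stfa3, a stefin of neutrophils, in 5. The largest lower ratios included Ptprz1, Nedd4, Ddah1, Mt3, Meis2, Ccnd2, Cd24a, Gpm6b, Zbtb20 and Bpgm, of which Ptprz1, a receptor of radial glia, was read in 5 Ncr1-cre+polyIC members.

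A rule added after these values were seen asked in addition that the 5 highest cells hold under 30% of a gene's UMIs in both libraries, and it left 35 higher and 278 lower genes. The higher ones were led by Oasl2, AI662270, Pam16, Snrnp25, Pithd1, Ifitm3, Mast3, Sp3os, Ifi35, Ndst2, Fbxo6 and Chmp1a. Oasl2, Ifitm3 and Ifi35 of these belong to the interferon-stimulated list. Ifi35 stood at 57.6, 31.8 and 43.4 CPM in Gzmb-cko+polyIC, Ncr1-cre+polyIC and Ncr1-cre+Saline members. The lower ones were led by Arhgap5, Tsix, Golga3, Hspa5, Arhgef7, Cdkn1b, Arhgap21, Parg, Ltn1, Cdc27, Kif3b and Brwd3. Tsix, transcribed from the strand opposite Xist, stood at 17.7, 38.7 and 31.4 CPM in Gzmb-cko+polyIC, Ncr1-cre+polyIC and Ncr1-cre+Saline members, beside shares of members with Xist and no Y-linked transcript of 36.5, 57.6 and 31.8%. Arhgap5, a GTPase-activating protein, stood at 36.2, 88.6 and 52.0 CPM in the same order of libraries.

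The second comparison set Ncr1-cre+polyIC members against Ncr1-cre+Saline members, and immediate early genes stood out. It shares the Ncr1-cre+polyIC library with the first comparison. Of 19 measured, 18 were higher in Ncr1-cre+polyIC members, where 67.3% of all genes were higher, and 13 were higher by at least 1.5-fold, where 12.9% of all genes were. The median log2 ratio was 0.88, and 0.66 under TMM, while all genes compared had 0.16 by CPM and -0.05 under TMM. Egr1 was the gene that was lower, where 32.7% of all genes were lower, and none was lower by 1.5-fold, where 3.51% of all genes were. These genes answer within minutes to many signals, and the sources used here do not give the time between dissection and capture. Without members that carried RNA of other cell types the median was 0.78.

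Fosb, a transcription factor of the AP-1 family (chromosome 7, 19302696 to 19310051), stood at 595 CPM in Gzmb-cko+polyIC, 761 CPM in Ncr1-cre+polyIC and 238 CPM in Ncr1-cre+Saline members. The ratio of Ncr1-cre+polyIC over Ncr1-cre+Saline was 3.20 (2.86 to 3.59). Its partner gene Fos (chromosome 12, 85473890 to 85477273) stood at 1398, 1918 and 763 CPM, with a ratio of 2.51 (2.36 to 2.68). Both poly(I:C) libraries thus lay above the saline library for both genes. Jun stood at 1448, 1957 and 1012 CPM, Klf6, a zinc finger factor, at 500, 753 and 335 CPM, and Zfp36, which speeds the decay of cytokine messages, at 481, 517 and 233 CPM. Dusp1, a phosphatase that turns off MAP kinases, stood at 344, 436 and 181 CPM in the same order, with a ratio of 2.41 (2.11 to 2.76). In Gzmb-cko+polyIC against Ncr1-cre+polyIC members, 13 of the 19 genes were lower, near the 61.3% of all genes, with a median log2 ratio of -0.18 that was -0.01 under TMM. Of 13 mitochondrially encoded genes 11 were higher in Ncr1-cre+polyIC than in Ncr1-cre+Saline members, where 67.3% of all genes were, with a median of 0.53.

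Chemokines for monocytes had the largest higher ratios among genes whose UMIs were spread over many cells. Ccl2 (chromosome 11, 82035571 to 82037453) stood at 232 CPM in Gzmb-cko+polyIC, 372 CPM in Ncr1-cre+polyIC and 101 CPM in Ncr1-cre+Saline members. The ratio of Ncr1-cre+polyIC over Ncr1-cre+Saline was 3.68 (3.11 to 4.38), and that of Gzmb-cko+polyIC over Ncr1-cre+polyIC 0.624 (0.565 to 0.690). Its neighbour Ccl7 (chromosome 11, 82045712 to 82047525) stood at 144, 241 and 57.7 CPM, with a ratio of Ncr1-cre+polyIC over Ncr1-cre+Saline of 4.18 (3.35 to 5.25). For both genes the Gzmb-cko+polyIC members lay between the others. Ccl12, a related chemokine of mice, stood at 278, 306 and 158 CPM and Ccl3, which attracts many leukocytes, at 348, 291 and 189 CPM. Ccl6, a chemokine of rodents, had the opposite direction at 157, 147 and 300 CPM. Of the 10 chemokines measured, 7 were higher and 3 lower in Ncr1-cre+polyIC than in Ncr1-cre+Saline members, which is near the 67.3% of all genes that were higher. By 1.5-fold 4 were higher, where 12.9% of all genes were, and 1 lower, where 3.51% were, with a median log2 ratio of 0.45, and 1 of the 10 is Pf4 of the rule. Ccl2 was detected in 35.9, 46.5 and 23.6% of thinned members, against 10.2, 19.95 and 11.8% of microglia.

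**Figure D4:**
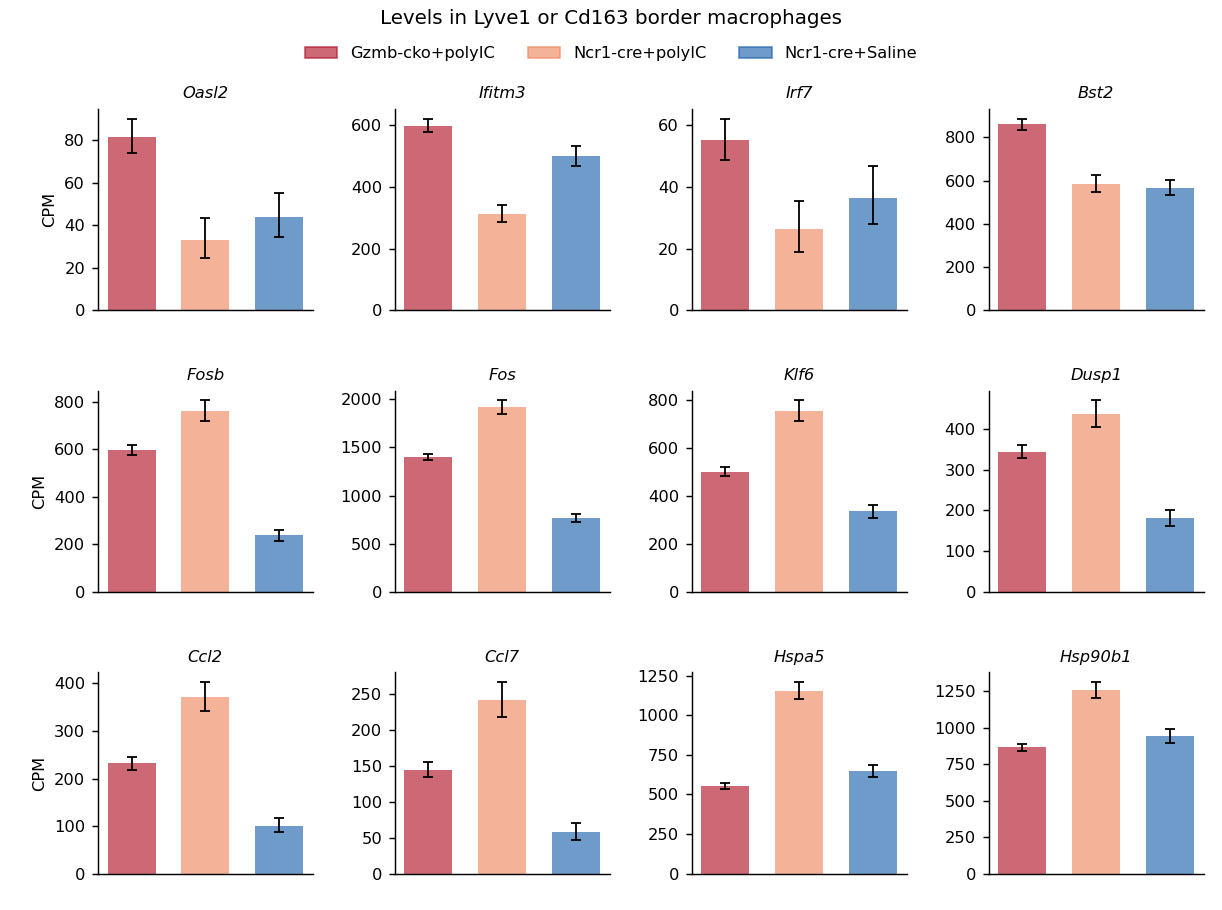
Level of 12 genes in members (y axis, CPM from 0) in the Gzmb-cko+polyIC, Ncr1-cre+polyIC and Ncr1-cre+Saline libraries, with error bars for the exact 95% Poisson interval of the summed UMIs. Oasl2, Ifitm3, Irf7 and Bst2 are highest in the Gzmb-cko+polyIC library, while Fosb, Fos, Klf6, Dusp1, Ccl2, Ccl7, Hspa5 and Hsp90b1 are highest in the Ncr1-cre+polyIC library.

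Of 17 growth factors and vessel-directed genes measured, 15 were higher and 2 lower in Ncr1-cre+polyIC than in Ncr1-cre+Saline members, where 67.3% of all genes were higher. By at least 1.5-fold 7 were higher, where 12.9% of all genes were, with a median log2 ratio of 0.47 that was 0.25 under TMM. Cyr61, a matrix protein that acts on vessels (chromosome 3, 145646976 to 145649981), stood at 80.3 CPM in Gzmb-cko+polyIC, 138 CPM in Ncr1-cre+polyIC and 39.4 CPM in Ncr1-cre+Saline members, with a ratio of Ncr1-cre+polyIC over Ncr1-cre+Saline of 3.50 (2.66 to 4.66). Igfbp4 stood at 887, 1033 and 502 CPM and Bmp2, a bone morphogenetic protein, at 63.4, 81.1 and 37.1 CPM. For all 3 genes both poly(I:C) libraries lay above the saline library. Of the 17 genes 14 were lower in Gzmb-cko+polyIC than in Ncr1-cre+polyIC members, where 61.3% of all genes were lower, with a median of -0.22 that was -0.04 under TMM.

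In the unfolded protein list 18 of 20 genes were higher in Ncr1-cre+polyIC than in Ncr1-cre+Saline members, where 67.3% of all genes were higher. Their median log2 ratio was 0.33, and 0.12 under TMM. The 2 higher by at least 1.5-fold were a smaller share than the 12.9% of all genes. Of 37 genes that mark border macrophages but were outside the rule, 31 were higher in Ncr1-cre+polyIC than in Ncr1-cre+Saline members, where 67.3% of all genes were. By 1.5-fold 8 were higher and 1 lower, where 12.9 and 3.51% of all genes were, and the median log2 ratio of 0.31 was 0.09 under TMM. Dab2, an adaptor of endocytosis, stood at 1638, 2131 and 1235 CPM in Gzmb-cko+polyIC, Ncr1-cre+polyIC and Ncr1-cre+Saline members, and Gas6, which bridges dying cells to their receptors, at 840, 905 and 541 CPM. Of 19 scavenger and endocytic receptors, 5 of which the rule used, 16 were higher, where 67.3% of all genes were. Their median was 0.27, and 0.06 under TMM. By 1.5-fold 6 were higher, where 12.9% of all genes were. Mrc1 and Cd163 of the rule were among the 6, at ratios of 1.995 and 1.961. The counts of this list thus include genes that chose the cells and are a description only. In Gzmb-cko+polyIC against Ncr1-cre+polyIC members the 37 marker genes were divided, with 19 higher, where 38.7% of all genes were, 18 lower and a median of 0.04.

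Interferon-stimulated genes did not share the direction of the immediate early genes. In Ncr1-cre+polyIC against Ncr1-cre+Saline members 20 of 35 were higher and 15 lower, where 67.3% of all genes were higher. By 1.5-fold 3 were higher and 5 lower, where 12.9 and 3.51% of all genes were, and the median of 0.12 turned to -0.09 under TMM. Xaf1, a proapoptotic interferon target, stood at 65.4, 63.7 and 30.8 CPM in Gzmb-cko+polyIC, Ncr1-cre+polyIC and Ncr1-cre+Saline members, while Ly6e, a membrane protein that limits coronavirus entry, stood at 444, 269 and 460 CPM. Single genes thus went in both directions. Of 14 sensors and adaptors for double-stranded RNA, 11 were higher in Ncr1-cre+polyIC members, where 67.3% of all genes were, with a median of 0.32, and 0.11 under TMM. By 1.5-fold 2 of the 14 were higher, near the 12.9% of all genes. H2-T23, the mouse molecule Qa-1 that natural killer cell receptors recognise (chromosome 17, 36029773 to 36032855), stood at 92.6, 77.4 and 32.0 CPM, with a ratio of Ncr1-cre+polyIC over Ncr1-cre+Saline of 2.42 (1.75 to 3.38).

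Over all genes, 755 of 5836 (12.9%) were at least 1.5-fold higher and 205 (3.51%) at least 1.5-fold lower in Ncr1-cre+polyIC than in Ncr1-cre+Saline members. Here too scaling turned the balance round, with 305 higher and 500 lower under TMM. The largest higher ratios included Ptprz1, Ddah1, Ccl7, Mt3, Nedd4, Ccl2, Cyr61, Fam43a, Zbtb20, Fosb and Neat1. With the added rule on spread they included Ccl7, Ccl2, Cyr61, Fosb, Neat1, Fos, Nfkbiz, Cdkn1b, H2-T23, Dusp1 and Zscan26. Neat1, a long RNA of nuclear bodies, stood at 576, 866 and 296 CPM in Gzmb-cko+polyIC, Ncr1-cre+polyIC and Ncr1-cre+Saline members.

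The 12 largest lower ratios were Stfa3, Wfdc17, Hist1h2ap, Gngt2, Hist1h4d, Csf1, BC100530, Stfa2l1, Lcn2, Apoc1, Stfa1 and Stfa2, among them stefins with near-identical copies that are abundant in neutrophils. With the rule on spread they were Hcst, Hk2, Atp5k, Cd52, Pet100, Bola2, Anapc13, Ndufa5, Mast3, Sec61g, Tnrc6a and Smarcd1. Hk2, a hexokinase of glycolysis, stood at 77.1, 66.8 and 154 CPM in Gzmb-cko+polyIC, Ncr1-cre+polyIC and Ncr1-cre+Saline members, so both poly(I:C) libraries lay below the saline library. Cd52, a surface peptide of leukocytes, stood at 185, 139 and 307 CPM in the same order.

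Single cells showed how far these lists spread within each library. In members thinned to 3000 UMIs the interferon-stimulated genes had a median of 16 UMIs per cell (quartiles 10.75 and 26) in the Gzmb-cko+polyIC library, 12 (7 and 17) in the Ncr1-cre+polyIC library and 11 (7 and 17) in the Ncr1-cre+Saline library. The median and both quartiles were highest in the Gzmb-cko+polyIC library, where the cells ran from 0 to 100 UMIs, against 0 to 68 in the Ncr1-cre+polyIC and 1 to 81 in the Ncr1-cre+Saline library. Immediate early genes had medians of 29, 37 and 18 UMIs and the unfolded protein list 13, 18 and 13 UMIs in the same order. Ccl2, Ccl7 and Ccl12 together had medians of 1, 2 and 0 UMIs and were at 0 in 34.9, 28.0 and 52.1% of members. Microglia thinned alike had 6, 5 and 5 UMIs of interferon-stimulated genes, 24, 27 and 17 of immediate early genes and 15, 18 and 15 of the unfolded protein list.

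**Figure D5:**
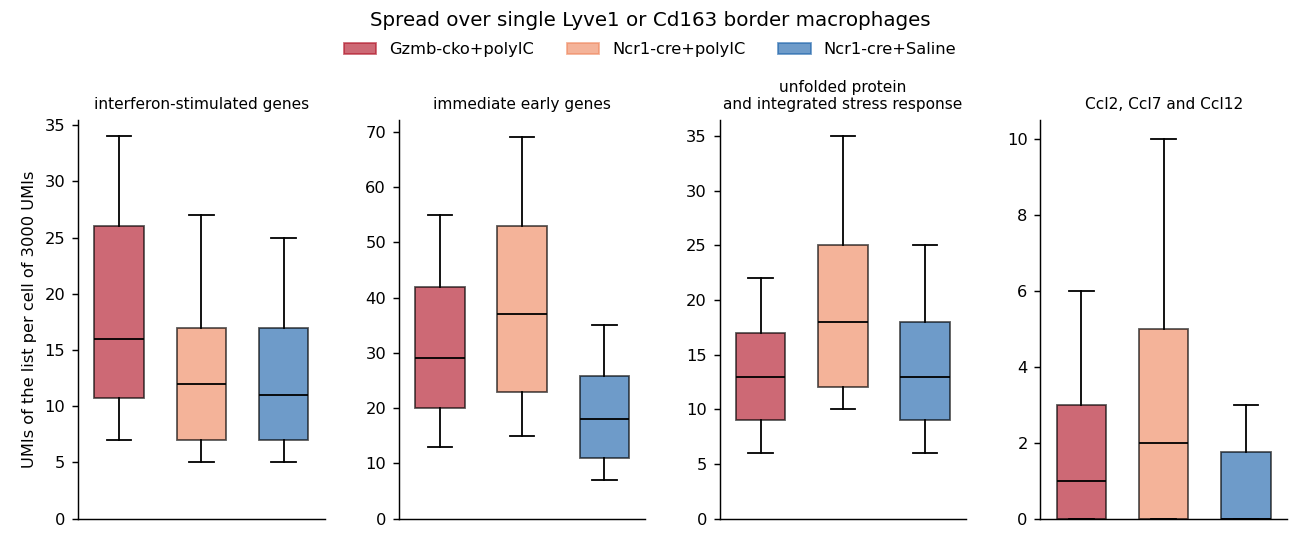
UMIs of 4 gene groups per member thinned to 3000 UMIs (y axis) in the Gzmb-cko+polyIC, Ncr1-cre+polyIC and Ncr1-cre+Saline libraries, with the box for quartiles, the line for the median and whiskers to the outermost cells within the 10th to 90th percentile. Interferon-stimulated genes have medians of 16, 12 and 11 UMIs and immediate early genes 29, 37 and 18 UMIs, and the distributions of single cells overlap widely between libraries.

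Other cells of the same libraries shared some of these directions. For Gzmb-cko+polyIC over Ncr1-cre+polyIC, the median log2 ratio of interferon-stimulated genes was 0.40 in members, 0.34 in monocytes, 0.02 in microglia and -0.25 in macrophages with 0 UMIs of Lyve1 and Cd163. Ifitm3 stood at 242, 264 and 386 CPM in those macrophages of the Gzmb-cko+polyIC, Ncr1-cre+polyIC and Ncr1-cre+Saline libraries, and at 6279, 4843 and 4357 CPM in monocytes. The median of the unfolded protein list was -0.40 in members, -0.19 in macrophages with 0 UMIs, -0.22 in microglia and -0.30 in monocytes, and Hspa5 was lower in each of them, with ratios of 0.478, 0.575, 0.571 and 0.575. For Ncr1-cre+polyIC over Ncr1-cre+Saline, immediate early genes had medians of 0.88, 0.35, 0.64 and 0.36 in members, macrophages with 0 UMIs, microglia and monocytes, and chemokines 0.45, -0.13, 0.47 and -0.31. All genes compared had medians of 0.16, 0.08, 0.15 and 0.195 in this comparison and -0.09, 0.06, -0.03 and -0.02 for Gzmb-cko+polyIC over Ncr1-cre+polyIC, in the same order. The genes measured also differed, with 35, 29, 19 and 48 interferon-stimulated genes in that order. The unfolded protein median thus lay below that of all genes in all 4 kinds of cell. The immediate early median lay above it in all 4, by least in monocytes. None of the differences between kinds of cell was tested.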

How the data were processed

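The values deposited are raw counts of UMIs for each gene in each cell barcode, without normalization. Cell Ranger 5.0.0 wrote them per the file headers, but version 3.0.1, with STAR and the build mm10, stands in the submitters' processing notes. The sources used here do not give how barcodes were called as cells or whether doublets were removed before deposit. Per the labels' protocols the cells came from a Percoll gradient and CD11b microbeads. Each table held 27998 genes, and reads of genes with near-identical copies or overlapping neighbours can be lost or split.

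UMIs of the members were summed per library and divided by their total (CPM). Genes were compared when their level averaged 20 CPM or more across the 3 libraries. A ratio has an exact conditional binomial interval, a level an exact Poisson interval and a share a Clopper-Pearson interval, all at 95%. Log2 ratios and medians carry a pseudocount of 1 CPM, which lowers the ratio of low genes, and a ratio of at least 1.5 was counted as a call. A named gene needed a call, 100 UMIs over both libraries and the same direction under TMM and under the mean of per-cell CPM, and the 12 largest per direction were taken, of which a few are not reported here. Genes of the rule, the listed markers of other cell types, genes of sex chromosomes used for sexing, and predicted, mitochondrial, ribosomal protein and hemoglobin genes were not named in this way, while genes of other cell types outside the marker lists could be. Thinning drew 3000 UMIs per cell without replacement and left out 19, 13 and 0 members of the Gzmb-cko+polyIC, Ncr1-cre+polyIC and Ncr1-cre+Saline libraries. Microglia thinned alike were limited to 2000 cells per library. Scrublet was run through scanpy 1.11.5 at 0.8% per 1000 barcodes, TMM through edgeR 4.0.16, and the rest in Python 3.11.15 with numpy 2.4.6, scipy 1.17.1 and pandas 2.3.3. The ratios and their intervals were tested on simulated counts drawn from a pooled profile, without scatter between cells. The choice of cells, the thinning, the lists and the scaling were not simulated.

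The members, the gene lists and the tests were chosen with earlier results of these data known. The rule on spread, the split by Cd163 and the alternatives without members carrying RNA of other cell types or cycle genes were chosen after seeing the data.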

Additional observations from a re-analysis of the deposited data

Results flagged for a closer look

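The chemokine list had a median log2 ratio of 0.45 for Ncr1-cre+polyIC over Ncr1-cre+Saline in Lyve1 or Cd163 border macrophages and of -0.13 in macrophages with 0 UMIs of Lyve1 and Cd163, where 5 of 10 genes were higher and 5 lower. Of all 5400 genes compared in macrophages with 0 UMIs, 3343 were higher and 2057 lower, with a median of 0.08. The list is shown because its medians have opposite signs in these kinds of macrophage. The difference was not tested.

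The interferon-stimulated list had a median log2 ratio of 0.40 for Gzmb-cko+polyIC over Ncr1-cre+polyIC in Lyve1 or Cd163 border macrophages and of -0.25 in macrophages with 0 UMIs of Lyve1 and Cd163, where 10 of 29 genes were higher and 19 lower. Of all 5400 genes compared in macrophages with 0 UMIs, 3166 were higher and 2234 lower, with a median of 0.06. Oasl2 stood at 81.7 CPM in Gzmb-cko+polyIC members, against 33.1 CPM in Ncr1-cre+polyIC members. In macrophages with 0 UMIs it stood at 20.8 CPM in the Gzmb-cko+polyIC library and 33.2 CPM in the Ncr1-cre+polyIC library. It is listed because the signs are opposite, and the difference was not tested.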

How the results depend on the processing

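The share of members was highest in the Gzmb-cko+polyIC library under every alternative run. It was 4.92, 5.42 and 4.80% in the Gzmb-cko+polyIC library and 2.49, 2.73 and 2.47% in the Ncr1-cre+polyIC library with a common lower limit of UMIs, with the rule on thinned cells and with at least 1000 genes, and 1.67% in the Ncr1-cre+polyIC library at a mitochondrial limit of 5%. Counts of genes past 1.5-fold depended most on the settings. For Gzmb-cko+polyIC over Ncr1-cre+polyIC they were 251 higher and 120 lower under TMM, 205 and 148 under median of ratios scaling, 172 and 632 among members with Xist and no Y-linked transcript, 181 and 720 at a mean of 10 CPM, 28 and 105 at 50 CPM, and 998 and 2828 with no filter. There were 221 higher at the mitochondrial limit of 5%. For Ncr1-cre+polyIC over Ncr1-cre+Saline they were 305 and 500 under TMM, 315 and 476 under median of ratios, 500 and 309 with mitochondrial, ribosomal protein and hemoglobin genes left out of the total, 1308 and 348 at 10 CPM, 278 and 104 at 50 CPM, and 3969 and 1704 with no filter, and 380 were lower among members with Xist only. Filters on the mean change how many genes are tested, and the cause of the other shifts was not tested.

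The interferon-stimulated list had medians of 0.33 to 0.76 for Gzmb-cko+polyIC over Ncr1-cre+polyIC, highest at the mitochondrial limit of 5%. Its median for Ncr1-cre+polyIC over Ncr1-cre+Saline ran from -0.10 to 0.17. The immediate early list had 0.66 to 0.97 for Ncr1-cre+polyIC over Ncr1-cre+Saline. The unfolded protein list for Gzmb-cko+polyIC over Ncr1-cre+polyIC had -0.47 to -0.22, with -0.22 under TMM and -0.25 under median of ratios. For Ncr1-cre+polyIC over Ncr1-cre+Saline the unfolded protein list had 0.48 at the mitochondrial limit of 5%, 0.12 under TMM and 0.13 under median of ratios. Hemoglobin genes turned to 0.12 in that comparison at the mitochondrial limit of 5%.

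Single genes that turned round had most of their UMIs in Ncr1-cre+polyIC members from 5 cells. Among members with Xist only, the log2 ratio of Gzmb-cko+polyIC over Ncr1-cre+polyIC was -0.11 for BC100530, -0.51 for Stfa1 and 0.44 for Ccnd2. Without members carrying RNA of other cell types it was -1.28 for Prtn3, -0.99 for Stfa3, -0.95 for BC100530, -0.77 for Stfa1, 0.11 for Mt3 and 0.29 for Bpgm, and that of Ncr1-cre+polyIC over Ncr1-cre+Saline was -0.78 for Mt3. Among members with 0 UMIs of Mki67 and Top2a the Gzmb-cko+polyIC over Ncr1-cre+polyIC ratio was -1.45 for Prtn3, -2.85 for Stfa3, -4.77 for BC100530, -4.71 for Stfa1, 2.18 for Ptprz1, 0.64 for Mt3, 0.79 for Ccnd2 and 0.092 for Zbtb20, and the Ncr1-cre+polyIC over Ncr1-cre+Saline ratio was -0.11 for Ptprz1 and -0.021 for Mt3. Oasl2, Ifitm3 and Hspa5 for Gzmb-cko+polyIC over Ncr1-cre+polyIC, and Fosb, Fos, Ccl2, Ccl7 and Cyr61 for Ncr1-cre+polyIC over Ncr1-cre+Saline, kept their direction under every alternative that gave them a value. Members with Y-linked transcripts and no Xist (225, 44 and 76 in the Gzmb-cko+polyIC, Ncr1-cre+polyIC and Ncr1-cre+Saline libraries) and members with fewer than 2 cycle genes (14, 5 and 5) fell under 50 cells in a library and gave no value. No paired analysis was possible because each group has 1 library and the labels give no replicate numbers. Depth was lowest in the Ncr1-cre+polyIC members.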

Other observations

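Of 22 genes of heme and iron handling measured, 11 were higher and 11 lower in Gzmb-cko+polyIC than in Ncr1-cre+polyIC members, where 38.7% of all genes were higher. By at least 1.5-fold 2 were higher and 1 lower, where 1.53 and 6.13% of all genes were. Hmox1, the enzyme that breaks down heme, stood at 355 CPM in Gzmb-cko+polyIC, 235 CPM in Ncr1-cre+polyIC and 266 CPM in Ncr1-cre+Saline members. Blvrb, which reduces the product of heme, stood at 644, 627 and 426 CPM, and Slc40a1, the exporter of iron, at 305, 360 and 215 CPM. Hemoglobin transcripts took 0.967, 3.42 and 5.10% of member UMIs in these libraries, and their part was not tested.

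Of 12 genes known to answer to glucocorticoids, 9 were higher and 3 lower in Ncr1-cre+polyIC than in Ncr1-cre+Saline members, near the 67.3% of all genes that were higher, with a median log2 ratio of 0.25 that was 0.03 under TMM. Txnip, which binds thioredoxin, stood at 517, 753 and 322 CPM in Gzmb-cko+polyIC, Ncr1-cre+polyIC and Ncr1-cre+Saline members. Fkbp5, a partner of the glucocorticoid receptor, stood at 37.6, 33.7 and 43.4 CPM, and Tsc22d3 at 120, 93.6 and 84.0 CPM. Cd163 and Dusp1 belong to the same list, and Cd163 was used by the rule.

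Membrane proteins of other lists differed in level as well. Cd86, a costimulatory ligand, stood at 298, 349 and 189 CPM in Gzmb-cko+polyIC, Ncr1-cre+polyIC and Ncr1-cre+Saline members. Itgam, which encodes the CD11b chain used for enrichment, stood at 72.3, 75.5 and 122 CPM, and Trem2, a lipid receptor, at 552, 467 and 717 CPM. These 3 genes were picked after their values were seen.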
